A study of Mus musculus with 12 samples.

Results

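The 9 genes described here encode matrix-degrading and cell-surface proteases and the urokinase system in SIM-A9 cells, a mouse microglial cell line of C57BL/6 origin. They were taken by name: the matrix metalloproteinases Mmp9, Mmp12, Mmp13 and Mmp14, the ADAM proteases Adam8 and Adam17, the inhibitor Timp1, urokinase (Plau) and its receptor (Plaur). All 9 were found among the 55416 gene identifiers of the table, and all 9 passed the filter on low counts. The 4 groups were the MOK knockout line H14 (KO; MOK is a protein kinase), with lipopolysaccharide (LPS) at 1 µg/mL or with medium alone for 5 h, and wild-type SIM-A9 cells (WT) with LPS or with medium alone, each with 3 libraries. All 4 groups are labelled SIM-A9. The labels name a single KO line, and call replicates biological without saying how the cultures were separated, so the loss of MOK cannot be told apart from other differences between the lines, and p-values measure the spread between these libraries.

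Matrix metalloproteinases are made as inactive precursors, are opened by other proteases and are held in check by TIMP proteins. ADAM proteases sit in the membrane and release the outer parts of surface proteins, among them the precursor of tumour necrosis factor. Urokinase, bound to its receptor, turns plasminogen into plasmin, which digests fibrin and can open metalloproteinase precursors. In microglia and macrophages these enzymes are known for matrix remodelling, migration and cytokine release.

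Libraries held 39.7 M to 72.9 M counts. Mok was still counted in every library, with 78, 84 and 56 counts in KO LPS, 115, 117 and 95 in KO medium, 164, 87 and 158 in WT LPS and 158, 163 and 206 in WT medium. It was lower in KO under LPS (log2 fold change -0.72 ± 0.19 SE, edgeR adjusted p = 0.0177), a call lost without KO LPS replicate 3 (adjusted p = 0.0753) or WT LPS replicates 1 or 3 (0.0785 and 0.0515), and just missed the threshold in medium (-0.58 ± 0.19, adjusted p = 0.0501). The medium difference passed with DESeq2 (0.00495), protein-coding genes alone (0.0284), a count minimum of 50 (0.0380), a block for replicate number (0.0425), RLE scaling (0.0443) or non-robust estimation (0.0463). It also passed without KO medium replicate 2 (0.0412) or WT medium replicate 2 (0.0416). Reads outside an edited part of the gene do not check a knockout. Levels are given as counts per M of TMM-scaled library size (CPM), and as CPM per kb of exon where genes are compared with each other. Of 15 microglia and macrophage markers, 13 averaged over 1 CPM, and the list summed to 1244 to 1737 CPM in KO LPS, 928 to 1367 CPM in KO medium, 1746 to 2054 CPM in WT LPS and 1375 to 1644 CPM in WT medium. Its members differed: Fcer1g was at 257 CPM in KO LPS and 244 CPM in KO medium against 223 CPM in WT LPS and 166 CPM in WT medium, and Tyrobp at 111 CPM in both KO groups against 109 CPM in WT LPS and 98.0 CPM in WT medium. Lyz2 was at 4.65 CPM in KO LPS and 6.07 CPM in KO medium against 131 CPM in WT LPS and 139 CPM in WT medium, and P2ry12, C1qa and Tmem119 were at or below 5.97 CPM in every group. Processed pseudogenes held 6.64% to 7.35% of counts in KO LPS, 12.8% to 14.3% in KO medium, 6.28% to 7.05% in WT LPS and 6.58% to 13.05% in WT medium, where replicate 2 had the highest share. In bulk RNA, fewer cells expressing a gene and less RNA per cell cannot be told apart.

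Per kb of exon, the urokinase system and Adam17 were the most abundant of the 9 genes under LPS in both lines, with the metalloproteinases of the set far below them. In WT medium the order differed, with Adam8 at 19.8 ± 0.9 CPM per kb above Plaur at 8.72 ± 0.88 (SD, n = 3). In KO LPS, Plau was at 86.7 ± 12.4 CPM per kb (SD, n = 3), Plaur at 39.4 ± 3.5, Adam17 at 38.5 ± 3.3 and Adam8 at 4.23 ± 1.11. Mmp14 followed at 0.868 ± 0.049 CPM per kb, Mmp9 at 0.346 ± 0.067, Mmp13 at 0.140 ± 0.034, Timp1 at 0.127 ± 0.031 and Mmp12 at 0.110 ± 0.029. In WT LPS the order was Plau at 144 ± 17 CPM per kb, Plaur at 57.5 ± 5.7, Adam17 at 57.3 ± 3.3, Adam8 at 30.3 ± 2.4, Mmp12 at 3.43 ± 1.12, Mmp13 at 3.22 ± 1.36, Mmp9 at 2.93 ± 0.81, Mmp14 at 0.790 ± 0.011 and Timp1 at 0.0958 ± 0.0911. Plaur and Adam17 lay within each other's spread in both groups, as did Mmp12, Mmp13 and Mmp9 in WT LPS and Mmp13, Timp1 and Mmp12 in KO LPS. Among the metalloproteinases of the set, Mmp14 ranked above the others in KO LPS and below them in WT LPS.

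**Figure D1:**
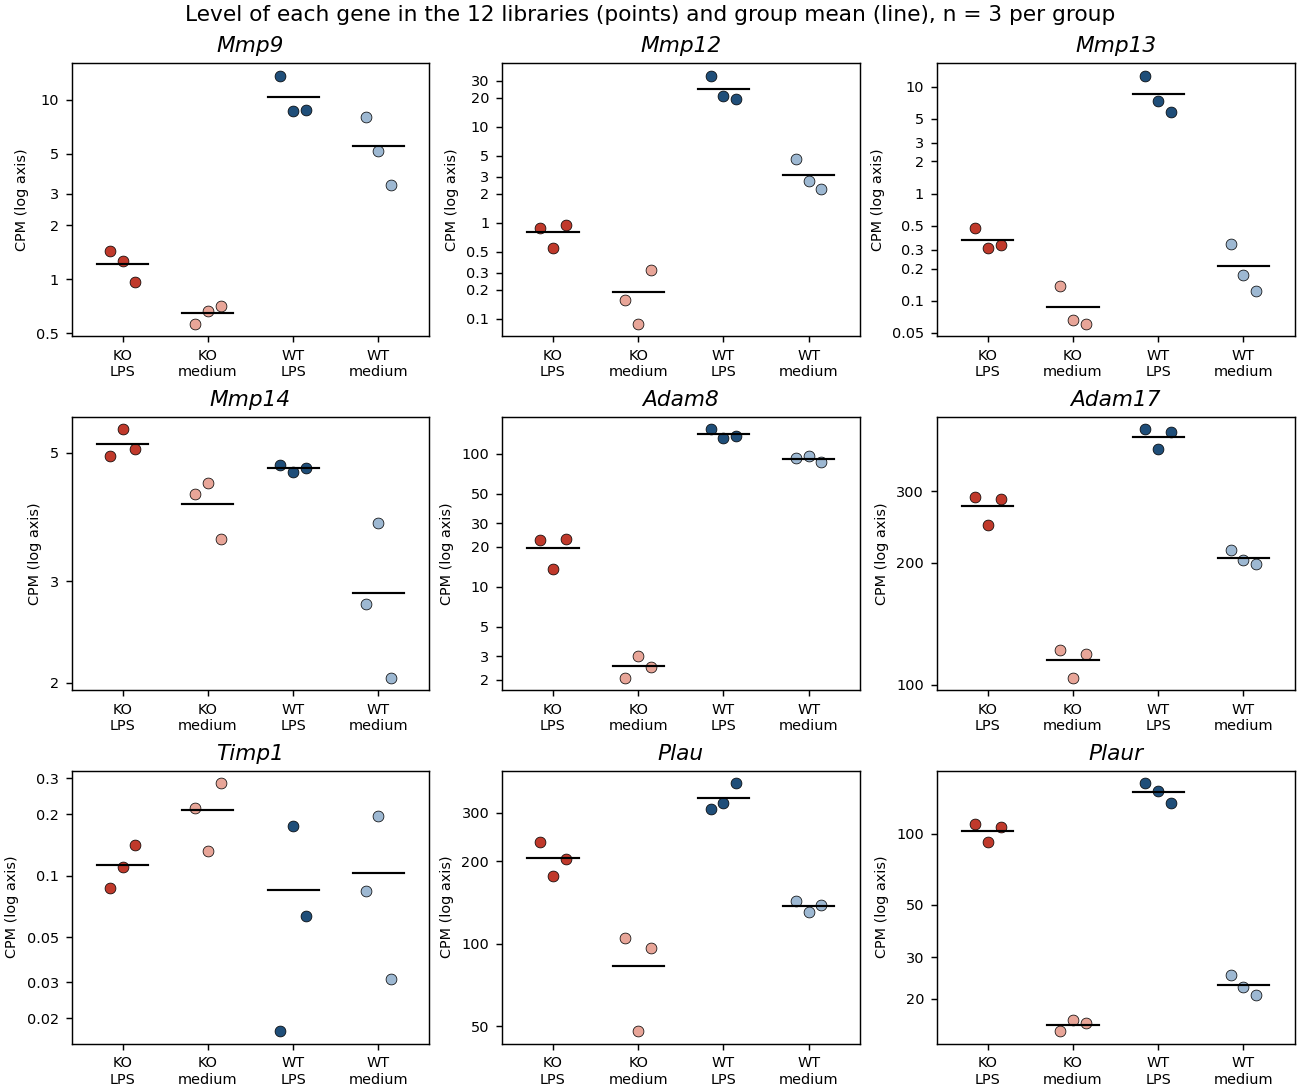
Level of the 9 genes in counts per M (CPM, log axis) in KO LPS, KO medium, WT LPS and WT medium; points are the 3 libraries of a group and lines are means. Mmp9, Mmp12 and Adam8 lie lower in all KO libraries than in all WT libraries of the same treatment, while Mmp14 lies between 2.04 and 5.50 CPM in all 12.

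The share of Mmp9, Mmp12, Mmp13 or Mmp14 in their summed level, taken within a library and per kb, does not depend on library scaling. Metalloproteinases outside the set are not in this sum. Of these, Mmp19 was at 1.43 ± 0.08 CPM per kb in KO LPS, 3.49 ± 0.34 in KO medium, 2.24 ± 0.42 in WT LPS and 5.34 ± 0.42 in WT medium (SD, n = 3). Mmp28 was at 4.23 ± 0.58, 1.02 ± 0.37, 2.49 ± 0.61 and 1.89 ± 0.98 in the same groups. Both had a higher mean than Mmp14 in every group. Mmp14, the membrane-anchored member that activates Mmp2, held 53.9%, 62.6% and 61.9% of the sum in KO LPS and 75.4%, 76.9% and 68.9% in KO medium, against 5.66%, 8.78% and 9.76% in WT LPS and 13.1%, 24.9% and 20.9% in WT medium. The KO and WT ranges did not overlap. Mmp13, a collagenase, held 9.51 ± 1.92% in KO LPS and 3.53 ± 1.62% in KO medium, against 30.4 ± 3.5% in WT LPS and 3.00 ± 0.55% in WT medium (SD, n = 3). Mmp9, the gelatinase B, took 23.5 ± 3.4% in KO LPS and 19.8 ± 3.2% in KO medium, against 28.5 ± 1.7% in WT LPS and 60.2 ± 4.4% in WT medium. These shares are descriptions and were not tested.

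**Figure D2:**
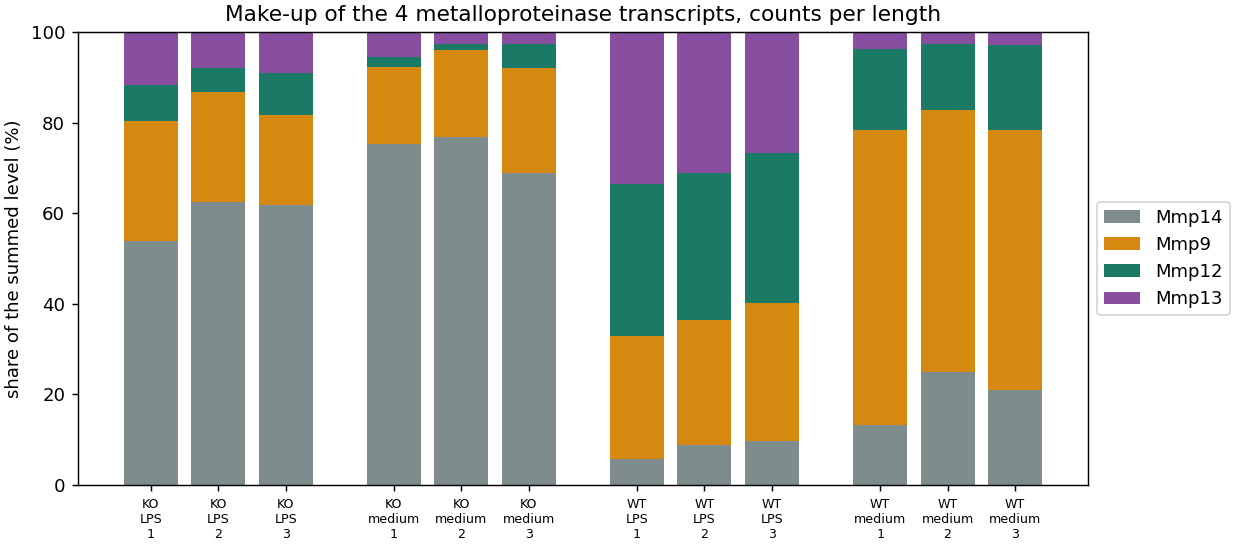
Share (%) of Mmp14, Mmp9, Mmp12 and Mmp13 in their summed level per kb of exon, 1 bar per library, in KO LPS, KO medium, WT LPS and WT medium. Mmp14 takes 53.9% to 76.9% of this sum in each KO library and 5.66% to 24.9% in each WT library.

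The first question was how the genes responded to LPS in each line. In the KO line 7 of the 9 rose, where 25.3% of all 26420 genes tested rose and 26.8% fell (52% in either direction), and Mmp14 and Timp1 did not pass. In the WT line 8 of the 9 rose, where 16.3% of all genes rose and 16.3% fell (32.6% in either direction), and Timp1 did not pass. The median log2 fold change of the 9 was 1.31 in KO and 1.00 in WT, beside -0.03 and -0.07 over all genes. A gene was called at an edgeR adjusted p under 0.05 over all genes tested. In the KO line treatment went together with the pseudogene share, and 4 of the 9 rose when that share was a covariate, without Mmp9, Mmp12, Mmp13 and Plau (adjusted p = 0.145, 0.0982, 0.135 and 0.166) and with Mmp14 (log2 fold change 1.09, adjusted p = 0.0330). The log2 fold changes of the 4 that no longer passed were 1.58, 2.47, 2.70 and 1.23 with the covariate, beside 0.92, 2.04, 2.04 and 1.31 without it. In WT, scaling by library size alone or leaving out the filter left 5 called, without Mmp9, Mmp14 and Adam8, and leaving out WT LPS replicate 1 had the same effect.

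Promoter sequences of 7 of the 9 genes were in the RefSeq table (GRCm38.p6), with Mmp9 and Plau not matched. The 250 bases before each start were searched on both strands for the AP-1 motif TGANTCA, which reads alike on both strands, the interferon-stimulated response element, the PU.1 motif GAGGAAG and the NF-kB consensus, and no match overlapped another. AP-1 is the FOS and JUN dimer, NF-kB and the interferon regulatory factors act downstream of Toll-like receptor 4, and PU.1 is a myeloid factor. AP-1 matches stood in 3 genes, Mmp12, Mmp13 and Plaur, and in 6.75% of all 32851 promoter windows of that length. These 3 sequences are shown because the genes had the largest LPS effects in WT, and Adam8 is shown because its LPS effect differed most upward in KO. Lower case is used throughout, with capitals for matches. The Mmp12 sequence belongs to the downstream of its 2 listed starts, the one with the AP-1 match. The upstream start held no AP-1 match, so Mmp12 had 2 windows in which a match could fall.
Mmp13 (chr9:7272264-7272513, plus strand): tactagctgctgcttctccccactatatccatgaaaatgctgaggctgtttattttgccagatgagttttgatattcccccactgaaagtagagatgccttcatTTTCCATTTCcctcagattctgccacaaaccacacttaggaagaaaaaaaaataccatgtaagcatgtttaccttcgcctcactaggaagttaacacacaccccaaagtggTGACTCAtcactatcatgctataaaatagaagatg
Mmp12 (chr9:7347124-7347373, plus strand): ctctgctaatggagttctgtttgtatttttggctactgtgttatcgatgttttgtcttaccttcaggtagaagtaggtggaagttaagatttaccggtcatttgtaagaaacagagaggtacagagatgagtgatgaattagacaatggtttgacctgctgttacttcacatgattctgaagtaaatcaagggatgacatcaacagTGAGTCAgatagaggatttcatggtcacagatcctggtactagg
Plaur (chr7:24462233-24462482, plus strand): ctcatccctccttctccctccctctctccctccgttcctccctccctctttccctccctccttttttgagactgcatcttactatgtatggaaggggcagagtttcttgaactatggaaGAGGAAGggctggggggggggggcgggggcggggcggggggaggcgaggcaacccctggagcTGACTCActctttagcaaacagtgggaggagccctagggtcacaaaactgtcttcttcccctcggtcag
Adam8 (chr7:139992563-139992812, minus strand): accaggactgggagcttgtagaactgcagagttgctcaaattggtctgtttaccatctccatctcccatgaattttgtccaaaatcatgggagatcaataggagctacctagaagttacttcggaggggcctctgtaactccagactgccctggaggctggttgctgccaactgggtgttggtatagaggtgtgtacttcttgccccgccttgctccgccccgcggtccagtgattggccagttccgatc
The AP-1 letters began 35 bases before the start in Mmp13, 44 in Mmp12 and 69 in Plaur. Mmp13 also held an interferon response match 146 bases before the start, on the reverse strand, a motif found in 2.98% of windows, and Plaur a PU.1 match at 131 bases, found in 10.6%. The upstream start of Mmp12 held an NF-kB match (7.25% of windows) and a PU.1 match, at 129 and 87 bases. Adam8, Adam17, Mmp14 and Timp1 held none of these 4 motifs in this window. A match is a string of letters and not a measured binding site.

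Among secreted metalloproteinases, Mmp13 had the largest LPS effect in WT. Its counts per M were 0.478, 0.313 and 0.330 in KO LPS and 0.136, 0.0663 and 0.0608 in KO medium. They were 12.7, 7.36 and 5.78 CPM in WT LPS and 0.337, 0.173 and 0.125 CPM in WT medium. The LPS libraries lay above the medium libraries in both lines, with the WT LPS libraries far above all others. LPS raised Mmp13 4.12-fold in KO (log2 fold change 2.04 ± 0.51 SE, edgeR adjusted p = 0.00675) and 41.0-fold in WT (5.36 ± 0.45, adjusted p = 4.58e-06). In replicates 1, 2 and 3, KO medium held 7, 3 and 3 counts and WT medium 16, 8 and 8, so its level in medium is imprecise. Mmp13 passed the filter through 3 KO LPS, 3 WT LPS and 1 WT medium libraries, with no KO medium library over it. It was thus kept mainly through the LPS groups, where it is called higher, and both fold changes carry that selection.

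Mmp12, the macrophage elastase, responded in the same direction. It had 0.891, 0.551 and 0.942 CPM in KO LPS and 0.156, 0.0884 and 0.324 CPM in KO medium, against 34.2, 20.8 and 19.5 CPM in WT LPS and 4.57, 2.70 and 2.23 CPM in WT medium. None of the groups overlapped within a line. LPS raised it 4.10-fold in KO (log2 fold change 2.04 ± 0.47, adjusted p = 0.00496) and 7.85-fold in WT (2.97 ± 0.38, adjusted p = 0.000144). KO medium held 8, 4 and 16 counts, so the level of Mmp12 there is imprecise. Mmp12 passed the filter through 3 KO LPS, 1 KO medium, 3 WT LPS and 3 WT medium libraries. Of its 31-mers, 4.24% also occur in transcripts of other genes.

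Mmp9 rose by less than 2-fold in both lines. It had 1.43, 1.27 and 0.966 CPM in KO LPS and 0.564, 0.663 and 0.710 CPM in KO medium, against 13.7, 8.68 and 8.72 CPM in WT LPS and 8.07, 5.21 and 3.33 CPM in WT medium. The groups of a line did not overlap, though WT medium replicate 1 came close to WT LPS replicates 2 and 3. The log2 fold change was 0.92 ± 0.33 in KO (adjusted p = 0.0358) and 0.90 ± 0.30 in WT (adjusted p = 0.0386). The KO call was lost without KO LPS replicates 1 or 2 (adjusted p = 0.104 and 0.0723) or KO medium replicates 1, 2 or 3 (0.100, 0.0770 and 0.0631), and with library size alone (0.0952), no filter (0.0565) or protein-coding genes alone (0.0645). The WT call was lost without WT LPS replicates 1, 2 or 3 (adjusted p = 0.163, 0.0514 and 0.0567), WT medium replicates 2 or 3 (0.0933 and 0.0795) or KO medium replicates 2 or 3 (0.0523 and 0.0531), and with the compared groups alone (0.120).

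Mmp14 had 4.93, 5.50 and 5.09 CPM in KO LPS and 4.24, 4.44 and 3.55 CPM in KO medium, against 4.77, 4.64 and 4.72 CPM in WT LPS and 2.74, 3.78 and 2.04 CPM in WT medium. The LPS libraries lay above the medium libraries in both lines, by a small margin. Its log2 fold change was 0.34 ± 0.20 in KO, which did not pass (95% interval -0.10 to 0.79, adjusted p = 0.177), and 0.72 ± 0.21 in WT (adjusted p = 0.0203). The WT call was lost without WT LPS replicates 1 or 3 (adjusted p = 0.0580 and 0.0542) or WT medium replicates 1 or 3 (0.0697 and 0.0593), and with the compared groups alone (0.121).

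Adam8, a membrane protease of leukocytes linked to their migration, rose in both lines from very different baselines. It had 22.4, 13.7 and 22.7 CPM in KO LPS and 2.08, 3.03 and 2.49 CPM in KO medium, against 153, 132 and 137 CPM in WT LPS and 92.9, 95.8 and 87.2 CPM in WT medium. All 4 groups were separate from each other. LPS raised it 7.75-fold in KO (log2 fold change 2.95 ± 0.20, adjusted p = 9.75e-07) and 1.53-fold in WT (0.61 ± 0.17, adjusted p = 0.0208). That WT increase did not pass when replicate 1 of WT LPS (adjusted p = 0.0757) or of WT medium (0.0647) was left out.

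Adam17, the sheddase of tumour necrosis factor, changed by near 2-fold with little spread. It had 291, 248 and 288 CPM in KO LPS and 122, 104 and 119 CPM in KO medium, against 427, 383 and 420 CPM in WT LPS and 214, 203 and 198 CPM in WT medium. No groups overlapped. LPS raised it 2.40-fold in KO (log2 fold change 1.26 ± 0.09, adjusted p = 1.59e-06) and 2.00-fold in WT (1.00 ± 0.09, adjusted p = 8.83e-06). Its 31-mers are shared with other genes in 3.22% of cases.

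Timp1, the inhibitor in the set, was at very low counts. It had 4, 6 and 6 counts in KO LPS, 11, 6 and 14 in KO medium, 1, 7 and 4 in WT LPS and 4, 9 and 2 in WT medium. It passed the filter through 2 KO medium libraries and 1 WT medium library. Its log2 fold change under LPS was -0.90 ± 0.63 in KO (95% interval -2.29 to 0.49, adjusted p = 0.256) and -0.34 ± 0.75 in WT (-1.98 to 1.30, adjusted p = 0.750), so at this depth a 2-fold fall could not be told from no change.

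The urokinase system rose in both lines by near-equal fold changes. Plaur, the anchored urokinase receptor, had 110, 92.4 and 107 CPM in KO LPS and 14.6, 16.3 and 15.8 CPM in KO medium, against 164, 153 and 135 CPM in WT LPS and 25.3, 22.5 and 20.7 CPM in WT medium. No groups overlapped. LPS raised it 6.62-fold in KO (log2 fold change 2.73 ± 0.11, adjusted p = 1.45e-08) and 6.60-fold in WT (2.72 ± 0.11, adjusted p = 1.57e-08). Plau, the urokinase itself, had 235, 177 and 203 CPM in KO LPS and 105, 47.9 and 96.6 CPM in KO medium, against 309, 326 and 385 CPM in WT LPS and 144, 130 and 138 CPM in WT medium. KO medium replicate 2 stood below the other KO medium libraries. LPS raised Plau 2.47-fold in both KO (log2 fold change 1.31 ± 0.24, adjusted p = 0.00169) and WT (1.31 ± 0.24, adjusted p = 0.00180). Per kb, Plau stood at 2.20 ± 0.15 times Plaur in KO LPS and 5.98 ± 2.43 times in KO medium, and at 2.54 ± 0.56 times in WT LPS and 6.70 ± 0.61 times in WT medium (SD, n = 3).

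**Figure D3:**
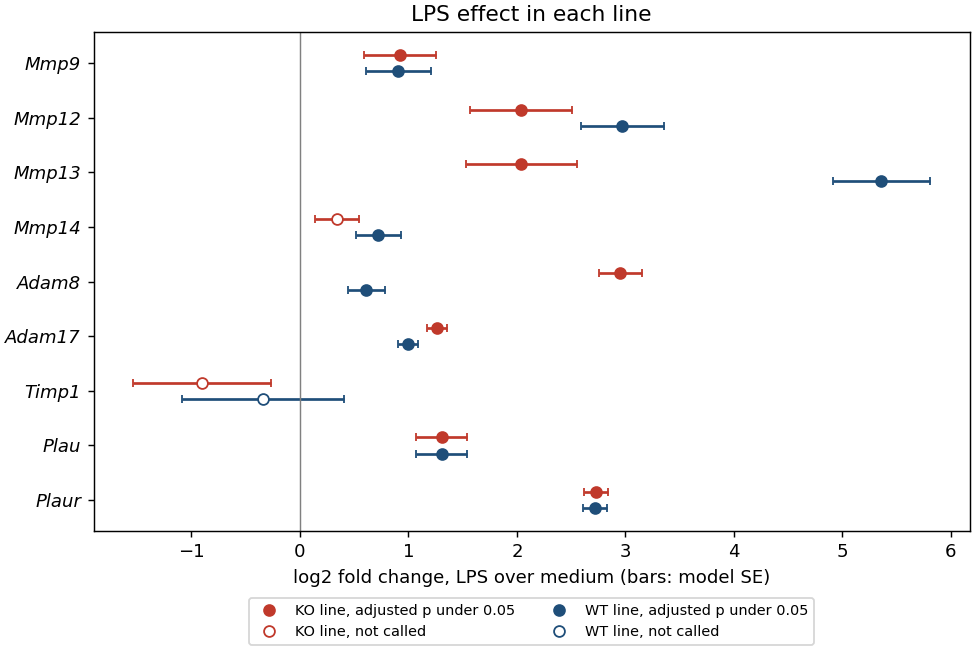
Log2 fold change of LPS over medium for each gene in the KO line (red, upper) and the WT line (blue, lower), with the standard error of the model as bars; filled points have an adjusted p under 0.05. Plau is at 1.31 in both lines, Mmp13 is at 2.04 in KO and 5.36 in WT, and Adam8 is at 2.95 in KO and 0.61 in WT.

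The difference between these LPS effects (KO minus WT) was tested next. It passed for 2 of the 9 genes, 1 in each direction, beside 0.693% of all genes higher and 0.908% lower (1.6% in either direction). Adam8 gained more in KO, by 2.34 ± 0.26 on the log2 scale (edgeR adjusted p = 0.00180), and Mmp13 gained less, by -3.32 ± 0.71 (adjusted p = 0.0432). The Adam8 difference held in all 21 alternatives run, between 2.22 and 2.54, while KO LPS stayed below WT medium in level. The Mmp13 difference kept its direction in all 21, between -3.77 and -2.84, but its call was lost in 10 of them. Those were the pseudogene share as a covariate (adjusted p = 0.207) and the fits without KO LPS replicates 1, 2 or 3 (0.0644, 0.0644 and 0.108), KO medium replicates 1, 2 or 3 (0.173, 0.0587 and 0.0763), WT LPS replicates 1 or 2 (0.0867 and 0.0816) or WT medium replicate 3 (0.0824). Mmp12 had -0.94 ± 0.61 (95% interval -2.29 to 0.41, adjusted p = 0.532) and did not pass. For Plaur the interval of the difference was -0.31 to 0.32, for Adam17 -0.02 to 0.54, for Plau -0.74 to 0.73, for Mmp9 -0.84 to 0.88 and for Mmp14 -1.01 to 0.25.

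**Figure D4:**
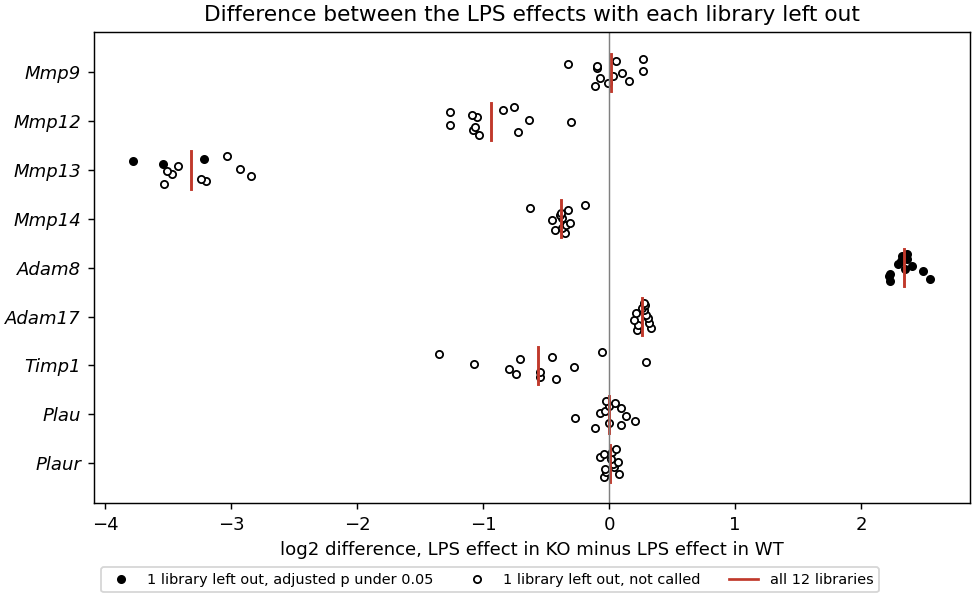
Log2 difference between the LPS effects, KO minus WT, over all 12 libraries (red lines) and with 1 library left out (points, filled where the adjusted p is under 0.05). Adam8 stays between 2.22 and 2.54 and called throughout, while Mmp13 stays between -3.77 and -2.84 and is called in only part of the fits.

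Compared at the same treatment, the KO line held less transcript of most of these genes. Under LPS 7 of the 9 were lower in KO, where 12.7% of all genes were lower and 7.87% higher, and Mmp14 and Timp1 did not pass. In medium 5 of the 9 were lower, where 12.3% of all genes were lower and 6.88% higher, namely Mmp9, Mmp12, Adam8, Adam17 and Plaur. The median log2 fold change of the 9 was -0.73 under LPS and -0.84 in medium, beside 0.07 and 0.04 over all genes. These comparisons use the same libraries as the LPS comparisons and are not independent of them. Without WT medium replicate 2, whose pseudogene share was 13.05%, 8 were called in medium, with Plau (adjusted p = 0.0370) lower and Mmp14 and Timp1 higher (log2 fold changes 0.75 and 1.90, adjusted p = 0.00589 and 0.0421). That fit called 11265 of all genes in medium, 6110 higher and 5155 lower, against 5074 with all 12 libraries. That Timp1 call rests on 11, 6 and 14 counts in KO medium against 4 and 2 in the WT medium libraries left. The library left out, with 9 counts, was the only WT medium library that carried Timp1 over the filter. In that fit Timp1 passed the filter only through KO medium, where it is called higher, so its call cannot be read as a difference.

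**Figure D5:**
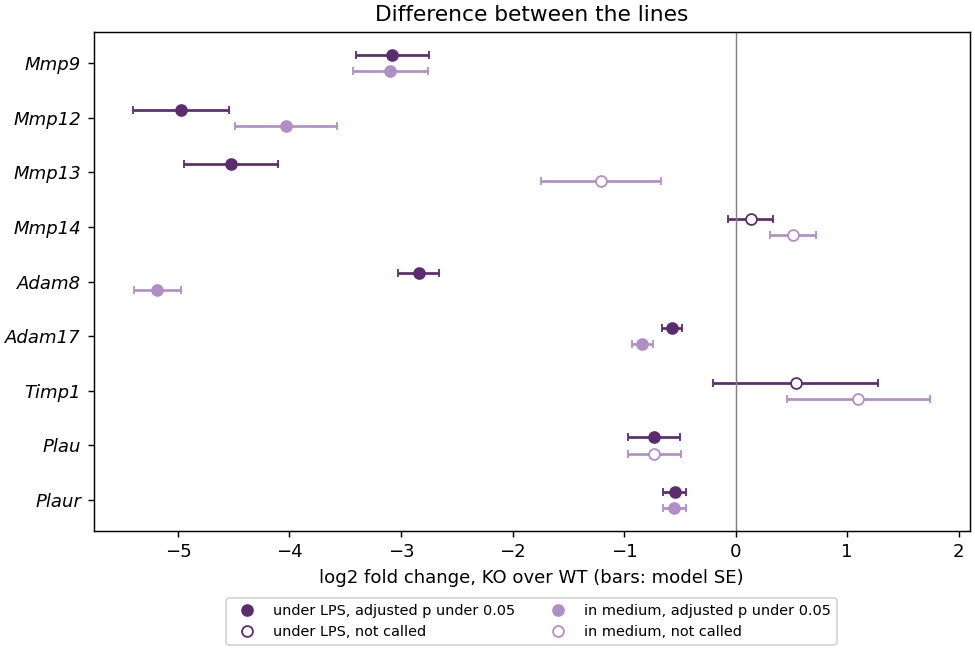
Log2 fold change of KO over WT for each gene under LPS (dark, upper) and in medium (light, lower), with the standard error of the model as bars; filled points have an adjusted p under 0.05. Mmp12, Mmp13, Mmp9 and Adam8 lie between -4.97 and -2.84 under LPS, while Adam17, Plau and Plaur lie between -0.73 and -0.55.

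The largest differences were in Adam8 and in the secreted metalloproteinases. Adam8 was 7.17-fold lower in KO under LPS (log2 fold change -2.84 ± 0.19, adjusted p = 1.31e-06) and 36.3-fold lower in medium (-5.18 ± 0.21, adjusted p = 8.42e-08). Mmp12 was 31.3-fold lower under LPS (-4.97 ± 0.43, adjusted p = 1.05e-05) and 16.4-fold lower in medium (-4.03 ± 0.46, adjusted p = 0.000116). The size in medium is imprecise, as KO medium held 8, 4 and 16 counts of Mmp12. Mmp9 was lower in both states, at -3.08 ± 0.33 under LPS (adjusted p = 4.31e-05) and -3.10 ± 0.34 in medium (adjusted p = 7.42e-05). Mmp13 was 23.0-fold lower under LPS (-4.52 ± 0.42, adjusted p = 1.60e-05), and in medium, at its low counts, did not pass (-1.21 ± 0.54, adjusted p = 0.134). For Mmp9, Mmp12 and Adam8 in both states, and for Mmp13 under LPS, every alternative run kept the call. Of the macrophage markers, Lyz2, Fcer1g and Tyrobp had the values given above, Ptprc was at 264 CPM in KO LPS and 188 CPM in KO medium against 312 CPM in WT LPS and 187 CPM in WT medium, and Itgam was at 2.95 CPM in KO LPS and 3.67 CPM in KO medium against 24.2 CPM in WT LPS and 20.9 CPM in WT medium. The part of these marker levels in the results was not tested.

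Adam17 and the urokinase pair differed less. Adam17 was lower by a log2 fold change of -0.57 ± 0.09 under LPS (adjusted p = 0.000797) and -0.84 ± 0.09 in medium (adjusted p = 7.46e-05). Plaur was at -0.55 ± 0.10 in both states (adjusted p = 0.00238 under LPS and 0.00318 in medium). Plau had -0.73 ± 0.23 under LPS, just past the threshold (adjusted p = 0.0496), and -0.73 ± 0.24 in medium, just short of it (adjusted p = 0.0528), with groups that did not overlap in either state. The Plau call under LPS was lost without KO LPS replicates 1, 2 or 3 (adjusted p = 0.0664, 0.161 and 0.128), KO medium replicate 3 (0.0541), WT LPS replicates 1, 2 or 3 (0.0794, 0.0944 and 0.160) or WT medium replicates 1, 2 or 3 (0.0677, 0.0527 and 0.0551), and the medium difference passed without KO medium replicates 1 or 2 (0.0328 and 0.0280). The LPS call was also lost with no filter (0.131), the pseudogene covariate (0.0558), library size alone (0.0566) and RLE scaling (0.0531). The medium difference also passed with DESeq2 (0.0265), library size alone (0.0386), a count minimum of 50 (0.0433), non-robust estimation (0.0490) and protein-coding genes alone (0.0370). Mmp14 was at 0.14 ± 0.20 under LPS (95% interval -0.31 to 0.58) and 0.52 ± 0.21 in medium (0.07 to 0.97), without passing in either (adjusted p = 0.751 and 0.100), though DESeq2 called the medium difference (0.49, adjusted p = 0.0491). Timp1 was at 0.54 ± 0.74 and 1.10 ± 0.64 (adjusted p = 0.725 and 0.234).

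The other genes of these pathways were taken as lists, to be read beside the shares of all 26420 genes. With LPS these were 25.3% higher and 26.8% lower in KO and 16.3% each way in WT, and between the lines 7.87% higher and 12.7% lower under LPS and 6.88% higher and 12.3% lower in medium. Without WT medium replicate 2, 11265 of all genes were called between the lines in medium, against 5074 with all 12 libraries. The medium list counts of that fit are to be read beside the first number. Of 19 other metalloproteinases 11 were measurable, and in KO 2 rose and 2 fell with LPS, while in WT 1 rose and 1 fell (medians -0.00 and -0.06). Mmp19 fell with LPS to 5.06 ± 0.27 CPM in KO LPS, against 12.3 ± 1.2 CPM in KO medium (log2 fold change -1.29 ± 0.14), and to 7.92 ± 1.47 CPM in WT LPS, against 18.9 ± 1.5 CPM in WT medium (-1.25 ± 0.14). Mmp28 rose in KO by 2.05 ± 0.42 (adjusted p = 0.00308), and not with the pseudogene share as a covariate (0.38, adjusted p = 0.804). Between the lines, 3 of the 11 were lower in KO under LPS (median 0.10) and 1 in medium (median -0.31), Mmp19 in both at -0.65 ± 0.14 and -0.61 ± 0.14. The medium count was 4 without WT medium replicate 2 and 2 without KO medium replicate 2, and the WT LPS count was 4 without WT medium replicate 2. Under the pseudogene covariate, 1 gene was called for LPS in KO, and Mmp19 in medium was at -0.56 between the lines without passing (adjusted p = 0.0824).

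ADAM and ADAMTS proteases, 14 of 16 measured, had 5 higher and 4 lower with LPS in KO, where 52% of all genes were called, and 4 higher and 1 lower in WT, where 32.6% were (medians 0.51 and 0.46, beside -0.03 and -0.07 over all genes). Adamts4, an aggrecanase, rose by 3.97 ± 0.29 in KO and 3.58 ± 0.28 in WT. Adamts1, which also cleaves proteoglycans, was at 41.2 ± 5.6 CPM in KO LPS and 19.3 ± 3.2 CPM in KO medium, against 116 ± 3 CPM in WT LPS and 40.9 ± 3.1 CPM in WT medium. It was lower in KO under LPS (-1.50 ± 0.13, adjusted p = 7.81e-06) and in medium (-1.08 ± 0.13, adjusted p = 0.000132), and was the only list member called lower in each state (medians of the list 0.03 and -0.02), while Adamts2 was called higher under LPS. Without WT medium replicate 2 the medium count was 3, and the Adamts2 call was lost in 5 of the 12 fits with a library left out, those without KO LPS replicate 3, KO medium replicate 3, WT LPS replicates 1 or 3 or WT medium replicate 1, and also with DESeq2, no filter or a count minimum of 50. Under the pseudogene covariate, 3 genes were called for LPS in KO, against 9 without it.

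Genes that activate, dock or carry these proteases included Rhbdf2, the iRhom protein that brings ADAM17 to maturity. Of the 12 measured, 4 rose with LPS in each line, Furin, Rhbdf2, Cd44 and Lcn2, and 3 fell in KO and 1 in WT (medians 0.08 and 0.06). Rhbdf2 was at 126 ± 1 CPM in KO LPS and 28.4 ± 3.1 CPM in KO medium, against 206 ± 8 CPM in WT LPS and 45.6 ± 1.7 CPM in WT medium. It was lower in KO under LPS (-0.71 ± 0.08, adjusted p = 6.27e-05) and in medium (-0.69 ± 0.08, adjusted p = 0.000129), as Adam17 was. Furin, the convertase that removes the inhibitory parts of Mmp14 and Adam17, rose by 2.28 ± 0.25 in KO and 2.10 ± 0.25 in WT. In all, 4 of the 12 were lower in KO under LPS (median -0.08) and 3 in medium (median -0.05). Cd44, a docking receptor for Mmp9, was at -0.46 ± 0.12 under LPS, a call lost without WT LPS replicates 1 or 3 (adjusted p = 0.0696 and 0.0575), and at -1.11 ± 0.12 in medium. The LPS count of 4 was 2 without KO LPS replicate 1 or WT LPS replicates 2 or 3 and 1 without WT LPS replicate 1, and the medium count was 5 without WT medium replicate 2. The pseudogene covariate gave 4 calls for LPS in KO.

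Of 13 measured genes of plasminogen activation and fibrinolysis, 5 rose and 1 fell with LPS in KO and 4 rose and 1 fell in WT (medians 0.21 and 0.27). Anxa2, which docks plasminogen at the cell surface, had 553 ± 158 CPM in KO LPS and 248 ± 66 CPM in KO medium, against 762 ± 38 CPM in WT LPS and 417 ± 41 CPM in WT medium. It rose with LPS by 1.15 ± 0.23 in KO (edgeR adjusted p = 0.00243) and 0.87 ± 0.23 in WT (adjusted p = 0.0140), the KO call being lost under the pseudogene covariate (1.21, adjusted p = 0.147) and the WT call under it (0.0537), with library size alone (0.0533), with no filter (0.0723) or without WT medium replicate 2 (0.0541). In medium it was lower in KO (-0.75 ± 0.23, adjusted p = 0.0403), a call lost without KO medium replicates 2 or 3 (0.0863 and 0.0529), WT LPS replicates 1, 2 or 3 (0.0598, 0.0577 and 0.0598) or WT medium replicates 1 or 3 (0.103 and 0.0678), and under LPS it did not pass (-0.46 ± 0.23, adjusted p = 0.195). The medium call was also lost with the pseudogene covariate (0.180), no filter (0.111) or the compared groups alone (0.0687). Between the lines, 2 of the 13 were lower under LPS (median -0.10) and 3 in medium (median -0.28). The LPS count was 4 without KO medium replicate 2 and 1 without WT LPS replicates 1 or 3, and the medium count 8 without WT medium replicate 2. Without WT medium replicate 2 the WT LPS count was 3, and the covariate gave 2 calls for LPS in KO.

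Among 14 measured substrates of ADAM17, 6 rose and 6 fell with LPS in KO and 7 rose and 4 fell in WT (medians -0.15 and 0.24). Cx3cl1, the membrane-bound chemokine fractalkine, was higher in KO under LPS, by 4.18 ± 0.24, and in medium, by 1.92 ± 0.25. Under LPS 1 of the 14 was higher and 4 were lower in KO (median -0.33), and in medium 1 was higher and 3 were lower (median 0.21). Tnf was at 1256 ± 185 CPM in KO LPS and 1837 ± 190 CPM in WT LPS (-0.55 ± 0.12, adjusted p = 0.00663). The LPS effects differed for 3 of the 14, beside 1.6% of all genes. These were Cx3cl1 by 2.25 ± 0.33 (adjusted p = 0.00769), Lag3, a receptor of T cells, by -2.26 ± 0.45 (adjusted p = 0.0314), and Tnfrsf1a, a receptor of tumour necrosis factor, by -0.60 ± 0.12 (adjusted p = 0.0267). Lag3 was at low levels, with 0.464 ± 0.109 CPM in KO LPS, 2.04 ± 0.34 in KO medium, 1.52 ± 0.55 in WT LPS and 1.40 ± 0.35 in WT medium. Tnfrsf1a did not pass without KO LPS replicates 1 or 3 (0.0694 and 0.0744), without WT LPS replicates 1 or 3 (0.0885 and 0.0699) or with the covariate (-0.63, adjusted p = 0.0872). Neither Lag3 nor Tnfrsf1a passed without KO LPS replicates 1 or 3, without WT LPS replicate 1 or with the covariate, where 1 gene was called and none lower. The number of differing effects was 6 without KO LPS replicate 2 and 5 without WT medium replicate 2, where 3997 of all genes were called. The covariate gave 7 calls for LPS in KO.

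Of 16 matrix and matrix-binding genes, 8 rose and 2 fell with LPS in KO, where 25.3% of all genes rose and 26.8% fell, and 2 rose in WT, where 16.3% rose and 16.3% fell (medians 0.53 and 0.18, beside -0.03 and -0.07 over all genes). Spp1, osteopontin, a substrate of metalloproteinases, was at 925 ± 322 CPM in KO LPS and 457 ± 143 CPM in KO medium, against 2595 ± 257 CPM in WT LPS and 1621 ± 72 CPM in WT medium, and was lower in KO under LPS (-1.49 ± 0.27, adjusted p = 0.00230) and in medium (-1.83 ± 0.27, adjusted p = 0.000825). Lamc1, a laminin chain, rose by 2.20 ± 0.17 in KO and 1.65 ± 0.17 in WT. Under LPS 1 of the 16 was higher and 2 were lower in KO (median 0.33), and in medium 2 were lower (median -0.39). The 10 KO calls became 6 without KO LPS replicate 1, 5 without KO LPS replicate 2, 3 without KO medium replicate 2, 4 without KO medium replicate 3 and 1 with the covariate. The WT LPS count was 4 without WT medium replicate 3, and without WT medium replicate 2 the counts between the lines were 5 under LPS and 8 in medium. Of the 5 other metalloproteinase inhibitors 2 were measurable, and Timp2 was lower with LPS in KO at -0.76 ± 0.26 (adjusted p = 0.0321), a call lost without KO LPS replicates 2 or 3 (0.113 and 0.0517), KO medium replicates 1 or 3 (0.0814 and 0.0673) with the compared groups alone (0.0516) or under the pseudogene covariate (-0.79, adjusted p = 0.531). The list count in that comparison varied between 1 and 3 with a library left out.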

How the data were processed

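The authors deposited raw read counts per Ensembl gene, 1 column for each of 12 libraries. RNA was prepared with a stranded kit after ribosomal RNA removal, per the labels' protocols. The submitters' processing notes name FastQC 0.11.9, Trimmomatic 0.39, STAR 2.7.9a, featureCounts, DESeq2 1.32.0 and GRCm39. Which annotation release, strand setting and multi-mapping rule were used is not given in the sources used here, so reads of antisense neighbours (Iah1 of Adam17, Gm16201 of Adam8, Mmp1b of Mmp12) may not be separable. Symbols (52083 of 55416 identifiers matched), gene classes and exon lengths came from a gene name table and GENCODE on GRCm38.

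Genes were kept with filterByExpr (count minimum 10), scaled by TMM and fitted with edgeR 4.0.16 (R 4.3.3; glmQLFit, robust, 4 group means, 12 libraries). Calls used a Benjamini-Hochberg adjusted p under 0.05 over 26420 genes. The standard error (SE) is the log2 fold change over the square root of F. Log2 CPM used a prior count of 2. Depth was 39.7 M to 72.9 M counts per library. Replicates differed by more than counting error, with a chi-square per degree of freedom of 21.0 to 168.

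The members, lists and rules were chosen with earlier results of these data known. Beside the 9 genes, the rule named from each list the 2 called genes with the largest change per comparison at a mean log2 CPM of at least 2, and the 2 protein-coding genes most like each member; not all of them are printed, and 1 gene of the fibrinolysis list is not reported here. Adamts2, Lcn2, Lag3, the markers and the antisense neighbours were named outside it, after their values were seen. Results were recomputed with DESeq2 1.42.0, RLE or plain library-size scaling, a count minimum of 50 or no filter, non-robust dispersion, a block for replicate number, a fit of the compared groups alone or of protein-coding genes alone, the pseudogene share (log2) as covariate, other prior counts, and without each library. Simulated counts with known changes were used to check the scripts.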

Additional observations from a re-analysis of the deposited data

Results flagged for a closer look

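The LPS effects of 2 genes differed between the lines by the test of the difference itself (LPS effect in KO minus LPS effect in WT). For Adam8 the difference was 2.34 ± 0.26 on the log2 scale (edgeR adjusted p = 0.00180), with effects of 2.95 in KO and 0.61 in WT. For Mmp13 it was -3.32 ± 0.71 (adjusted p = 0.0432), with effects of 2.04 in KO and 5.36 in WT. The Mmp13 call was kept in 11 of 21 alternatives, and was lost in 9 of the 12 fits with a library left out. The 3 KO LPS libraries of Mmp13 held 22, 17 and 14 counts, against 736, 295 and 365 in WT LPS. KO medium held 7, 3 and 3, with no library over the filter, and WT medium 16, 8 and 8, so both effects are imprecise.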

How the results depend on the processing

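Of 971 refits of a member's fold change, 867 kept their direction and their side of the threshold, and 33 reversed sign, these being of Timp1 or of the difference between LPS effects of Mmp9, Plau or Plaur. With LPS in WT, 5 members were called under library size alone and 5 with no filter. With LPS in KO, 4 were called with the pseudogene share as a covariate, which also gave 1 member whose LPS effects differed. Over all genes, the covariate gave 2342 calls between the lines in medium, 5574 for LPS in WT, 2001 for LPS in KO and 199 for differing effects. The fit of the compared groups alone gave 3354 calls in medium, and protein-coding genes alone gave 8285 for LPS in KO and 670 for differing effects, the last count being 771 with DESeq2. The cause was not tested beyond the construction of each fit.

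Same-numbered libraries correlated between -0.366 and 0.391 in their deviations. In each of the 4 comparisons of groups at least 1 of the 3 same-numbered pairs was under the 0.1 set for pairing (lowest 0.045 for LPS in KO, -0.17 for LPS in WT, -0.041 between the lines under LPS and -0.37 in medium), and not every library correlated best with its own number, so the numbers were not taken to pair the libraries. The replicate block gave 661 differing effects, with 7 members called in medium, among them Mmp13 (-1.22, adjusted p = 0.0300) and Plau (adjusted p = 0.0271). Library size alone moved the median log2 fold change of all genes to -0.40 for LPS in WT and -0.29 for LPS in KO, with 2104 higher and 9985 lower, and 4182 higher and 10422 lower; between the lines under LPS it gave 2922 higher and 2936 lower.

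With a library left out, calls over all genes ranged from 3444 to 11265 between the lines in medium, from 5322 to 10400 for LPS in WT and from 186 to 3997 for differing effects; members called ranged from 5 to 8 in medium, from 5 to 8 for LPS in WT and from 1 to 2 for differing effects. Timp1 under LPS in WT ranged from -1.19 to 0.40 (log2). The differences between LPS effects ranged from -0.33 to 0.27 for Mmp9, -1.35 to 0.29 for Timp1, -0.27 to 0.20 for Plau and -0.071 to 0.077 for Plaur. For Plau that difference was 0.012 with RLE scaling, 0.082 with library size alone, 0.014 with the stricter filter, 0.033 with the block and 0.0010 with DESeq2. For Mmp9 it was -0.017 with no filter, -0.061 with the block and -0.042 with protein-coding genes, and for Plaur -0.024 with no filter and -0.054 with protein-coding genes. With the covariate, Timp1 was at 0.64 in WT, 0.94 in KO and 0.30 for the difference. Depth limited Timp1, Mmp13 in medium in both lines, and Mmp12 in KO medium. Mmp13 gave no value in the medium fit of the compared groups alone. Timp1 gave none in any fit of the compared groups alone or under the stricter filter.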

Other observations

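Genes whose level followed a member most closely over the 12 libraries, by Pearson r of log2 CPM among 9751 protein-coding genes, are given as a description, since all genes share the same libraries and the 4 groups carry most of the spread. Epsti1 and Dcun1d3 were nearest to Mmp13 (r = 0.997 and 0.991), Itsn2 and Tmem106a to Mmp12 (0.992 and 0.991), and Atp6ap2 and Limd2 to Mmp9 (0.985 and 0.983). Adam8 was nearest to Flt1 and Tbcel (0.988 and 0.981), Adam17 to Fmnl2 and Oas3 (0.996 and 0.994), Plau to Trip11 and Zeb2 (0.982 and 0.974) and Plaur to Mdm2 and Ncoa5 (0.997 and 0.996). With a smaller prior count, 1 of the 2 nearest genes was another one for Mmp12 and for Timp1, and with a larger one for Mmp12, Mmp13 and Plaur. The values for Mmp14 (Psme2b and Larp7, 0.867 and 0.860) and Timp1 (Zfp943 and Ccdc162, 0.812 and 0.781) were lower.

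Flt1, a receptor of vascular endothelial growth factor and an endothelial marker, was at 66.6 CPM in KO LPS and 19.0 CPM in KO medium, against 326 CPM in WT LPS and 184 CPM in WT medium. The 6 endothelial markers summed to 173 to 195 CPM in KO LPS, 129 to 153 CPM in KO medium, 409 to 439 CPM in WT LPS and 275 to 289 CPM in WT medium, of which Kdr made up most of the rest. Cldn5, Pecam1, Cdh5 and Tek averaged under 1 CPM in every group. The other 5 lists of non-microglial markers summed to at most 46.6 CPM in any library.

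The antisense neighbours lay below the genes they overlap in all 12 libraries, for Mmp12 in KO medium by few counts. Iah1, opposite Adam17, was at 11.1 ± 2.3 CPM in KO LPS and 8.38 ± 1.44 CPM in KO medium, against 20.7 ± 1.8 CPM in WT LPS and 14.9 ± 2.1 CPM in WT medium (SD, n = 3). Gm16201, opposite Adam8, had 3 to 43 counts per library, and Mmp1b, opposite Mmp12, had 0 to 4. In KO medium Mmp1b had 1, 2 and 2 counts beside 8, 4 and 16 for Mmp12.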
